A study of Mus musculus with 8 samples.

Results

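RNA levels were described in the 2 libraries labelled LPS_IFNg_TubB, of 8 libraries in the whole series. These libraries were taken by their labels alone, as the columns of the count table that carry the group's replicate numbers 1 and 2. Per the labels, the cells were RAW264.7, a mouse tumour line of macrophage character, given lipopolysaccharide (LPS) at 10 ng/ml, interferon-gamma (IFN-γ) at 20 ng/ml and Tubuloside B, with a treatment time of 24 h. Tubuloside B is a plant phenylethanoid glycoside whose dose the sources used here do not give. The other groups, each of 2 libraries, were labelled TubB (Tubuloside B alone), LPS_IFNg (LPS with IFN-γ, at the same concentrations) and mock (the solvent DMSO). No time was given for TubB or mock. All 4 groups share the cell line, and nothing in the labels says that the replicates came from separate cultures, so the spread between them may be technical. No test of a difference between groups was run, and values from the other groups are printed only to place a level.

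The labels TubB and LPS_IFNg did not match the markers of the stimulus, so the groups are named here only as labelled. Nos2, the inducible nitric oxide synthase, had 3960 and 3349 transcripts per 1000000 (TPM) in the LPS_IFNg_TubB libraries, 3657 and 3202 TPM in those labelled TubB, 127 and 103 TPM in those labelled LPS_IFNg, and 111 and 96.6 TPM in mock. High levels thus stood in the LPS_IFNg_TubB libraries, whose label names the stimulus, and also in the TubB libraries, whose label does not. No gene is known to mark Tubuloside B, so its presence could not be checked. TPM divides each gene's count by its exon length and scales every library to the same total, so genes can be compared roughly within a library. The length covers all annotated exons, which may exceed the transcript present, and reads that map to several places were left out. In bulk RNA, fewer cells of a type and less RNA per cell cannot be told apart. Levels below are given for replicate 1 and then replicate 2, or as the mean ± SD over n = 2 libraries.

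LPS is a component of the bacterial outer membrane. It is bound by Cd14, the coreceptor, and passed to the receptor Tlr4 with its partner Ly96, and the signal runs through the adaptor Myd88 to NF-κB and MAP kinases, which switch on cytokine and chemokine genes. IFN-γ binds a receptor of Ifngr1 and Ifngr2 chains, and Janus kinases pass the signal on to promoters that carry gamma-activated sites. Macrophages given both are known for nitric oxide synthesis, guanylate-binding proteins, itaconate production and a shift of energy metabolism towards glycolysis.

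Promoter windows of 3 genes at high levels are shown because they carry the letter patterns that the signals above are known to use. Sequences are those of RefSeq on GRCm38.p6, plus strand, and run from 250 bases before the annotated start, 270 bases of a 300-base window. Capitals mark matches to a gamma-activated site (TTC, any 3 bases, GAA), the core of an interferon-stimulated response element (GAAA, any 2 bases, GAAA) or a κB site (GGGA, any 2 bases, TTCC), searched on both strands. The genes and the patterns were chosen after the levels had been seen.
Serpina3f, chr12:104214294-104214563: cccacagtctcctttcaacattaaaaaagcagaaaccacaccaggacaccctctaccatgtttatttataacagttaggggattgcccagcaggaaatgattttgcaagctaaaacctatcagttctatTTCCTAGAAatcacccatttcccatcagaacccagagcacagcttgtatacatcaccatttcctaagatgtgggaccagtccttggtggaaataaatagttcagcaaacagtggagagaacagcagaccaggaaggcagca
Gbp2, chr3:142620413-142620682: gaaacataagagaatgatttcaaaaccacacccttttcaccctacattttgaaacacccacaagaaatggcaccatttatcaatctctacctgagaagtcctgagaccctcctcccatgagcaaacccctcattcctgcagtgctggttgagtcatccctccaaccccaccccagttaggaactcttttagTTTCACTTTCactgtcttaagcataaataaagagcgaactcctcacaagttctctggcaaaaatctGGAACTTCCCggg
Cxcl2, chr5:90903649-90903918: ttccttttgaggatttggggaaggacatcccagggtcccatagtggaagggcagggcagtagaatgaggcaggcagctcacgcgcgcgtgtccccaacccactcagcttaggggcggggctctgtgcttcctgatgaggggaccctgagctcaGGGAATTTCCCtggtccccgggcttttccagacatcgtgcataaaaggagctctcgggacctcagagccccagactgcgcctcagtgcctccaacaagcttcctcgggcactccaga
The printed Serpina3f window, 1 of 2 for this gene, held 1 gamma-activated pattern, TTCCTAGAA, at base 130. In the Gbp2 window, TTTCACTTTC at base 192 matched the interferon-stimulated core on the other strand, and GGAACTTCCC at base 258 matched the κB pattern. The Cxcl2 window held 2 overlapping κB matches on opposite strands, GGGAATTTCC at base 154 and GGAATTTCCC at base 155.

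Across lists, the interferon-stimulated core was in 90.9% of 11 windows of interferon-induced GTPase genes (10 of 19 genes matched to the table) and in 42.2% of 64 windows of antiviral interferon-stimulated genes, against 3.44% of all 32851 windows. The gamma-activated pattern was in 80.0% of 5 windows of the interferon-induced serpins and 54.5% of the GTPase windows, against 8.30% of all windows. The serpin windows came from 4 of 5 genes, and Serpina3f gave 2 of them. κB matches stood in 26.7% of 15 chemokine windows (13 of 20 genes matched) and in 18.2% of the GTPase windows, against 1.47% of all windows. They were in 10.7% of 28 windows of NF-κB and MAP kinase feedback genes and 9.09% of 22 cytokine windows. Of 8 arginine and polyamine windows, 12.5% held one. None stood in the 22 windows of inflammatory effectors or the 16 of inflammasome genes. An antioxidant response element core (TGAC, any 3 bases, GC), also searched, was in 22.9% of 35 windows of redox, heme and iron genes, against 12.4% of all windows. It was as frequent in lists of other roles, with 24.1% for translation factors and 23.3% for chaperones. By class, the interferon-stimulated core was in 36.5% of interferon windows, 6.80% of inflammatory, 2.34% of metabolic and 4.72% of housekeeping windows. Matches are descriptions of letters in these windows, given without a test.

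The libraries held 4767894 and 6443351 counts, replicate 1 being the shallowest of the 8 libraries, which ran up to 8413834. One count on a transcript of 1 kb was worth 0.526 and 0.386 TPM. Of 42454 rows in the table, 15877 had a count in either library and 13114 in both. A mean of at least 1 TPM was reached by 11386 rows, at least 100 TPM by 1642 and at least 1000 TPM by 146. The 146 rows held 39.9% of all TPM. Ordered by level, 284 and 296 genes made up 50% of TPM (279 and 307 in TubB, 386 and 367 in LPS_IFNg, 378 and 365 in mock). Divided by counts alone without length, it took a mean of 664 genes. The 10 highest genes held 11.3% and 11.2% of TPM, and the 20 highest 16.7% and 16.4%.

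**Figure D1:**
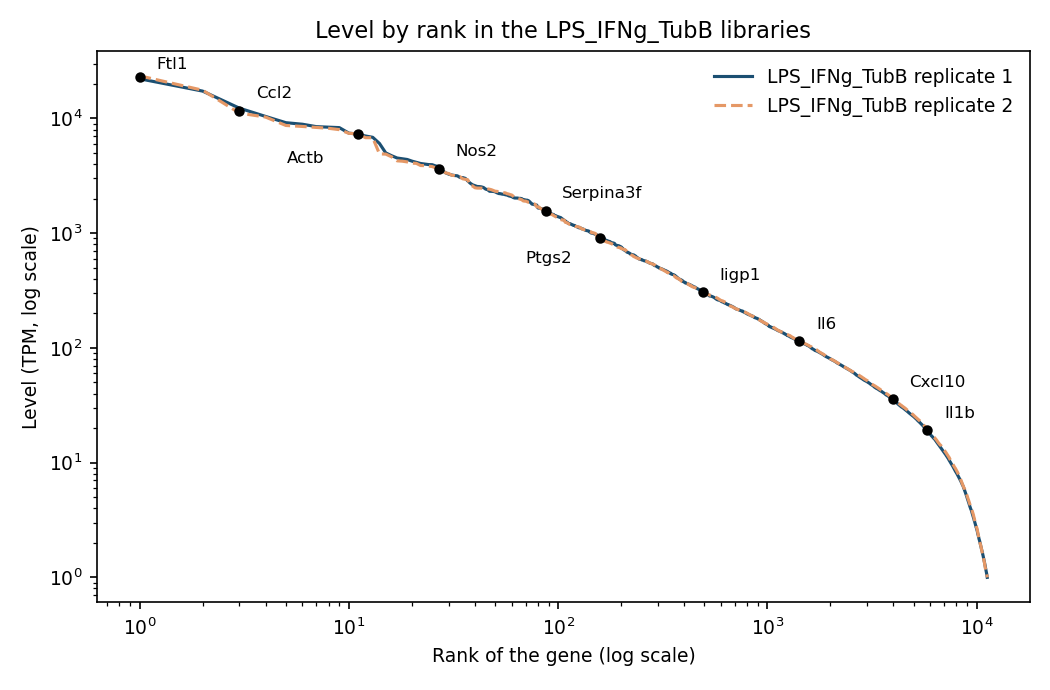
Level of each gene in TPM (log axis) against its rank (log axis) in the 2 LPS_IFNg_TubB libraries, solid line replicate 1 and dashed line replicate 2, with 10 genes marked at their mean level. The curves lie on each other, and the marked genes run from Ftl1 at rank 1 to Il1b at rank 5799.

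The plot of level by rank places the 3 markers of activation in its upper range. Nos2 (chr11:78920787-78960226, GRCm38.p6) took 0.365% of all TPM, at rank 27, from 32362 and 37257 counts. Serpina3f (chr12:104214544-104221129), a member of the interferon-induced serpin cluster of protease inhibitors, had 1625 and 1497 TPM at rank 87. In the TubB libraries it had 1639 and 1449 TPM, in LPS_IFNg 0.196 and 0, and in mock 0.822 and 0.337. Iigp1 (chr18:60373616-60392634), an interferon-inducible GTPase that acts on pathogen vacuoles, had 328 and 281 TPM at rank 492, against 329 and 251 TPM in TubB, no count in either LPS_IFNg library and 0.0666 and 0 TPM in mock. Without division by length the ranks were 8, 59 and 167.

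The 20 genes with the highest mean level joined iron storage, lysosome and housekeeping genes with inflammatory genes. Ferritin chains led: Ftl1, the light chain, had 22144 and 23496 TPM, and Fth1, the heavy chain, 17294 and 17603 TPM. Ccl2, the monocyte-attracting chemokine, came next, at 12275 and 11127 TPM, followed by lysozyme (Lyz2) at 10401 and 10267 TPM. The following places went to Ccl3, a chemokine, at 9175 and 8505 TPM, the peroxide-reducing Prdx1 at 8893 and 8332 TPM, and Eef1a1, a translation elongation factor, at 8311 and 8676 TPM. Acod1, which makes itaconate, was placed 13 at 6842 and 6782 TPM, close to Actb (β-actin) at 7300 and 7355 TPM. By class the 20 genes held 6 inflammatory, 1 interferon, 5 metabolic, 3 housekeeping and 5 of other lists. Class names are list labels and do not mean a steady level. Of the 3 housekeeping genes, Vim had 8471 and 7980 TPM here but 2390 and 2773 TPM in mock. In mock, Eef1a1 was higher, at 12244.1 and 11796.5 TPM, and Actb had 7540 and 7520 TPM. Of the 100 highest, 46 were housekeeping genes and 9 inflammatory. The order is not fully resolved: of 19 neighbouring pairs, 10 had no overlap between the libraries of the higher and the lower gene, and 9 did overlap. From Ccl3 to Vim, a cytoskeletal intermediate filament, none of the 4 neighbouring pairs separated. Ftl1, Fth1, Eef1a1, Gapdh and the ribosomal proteins have near-identical copies in the genome, and reads that map to several places were left out, so their levels are uncertain.

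**Figure D2:**
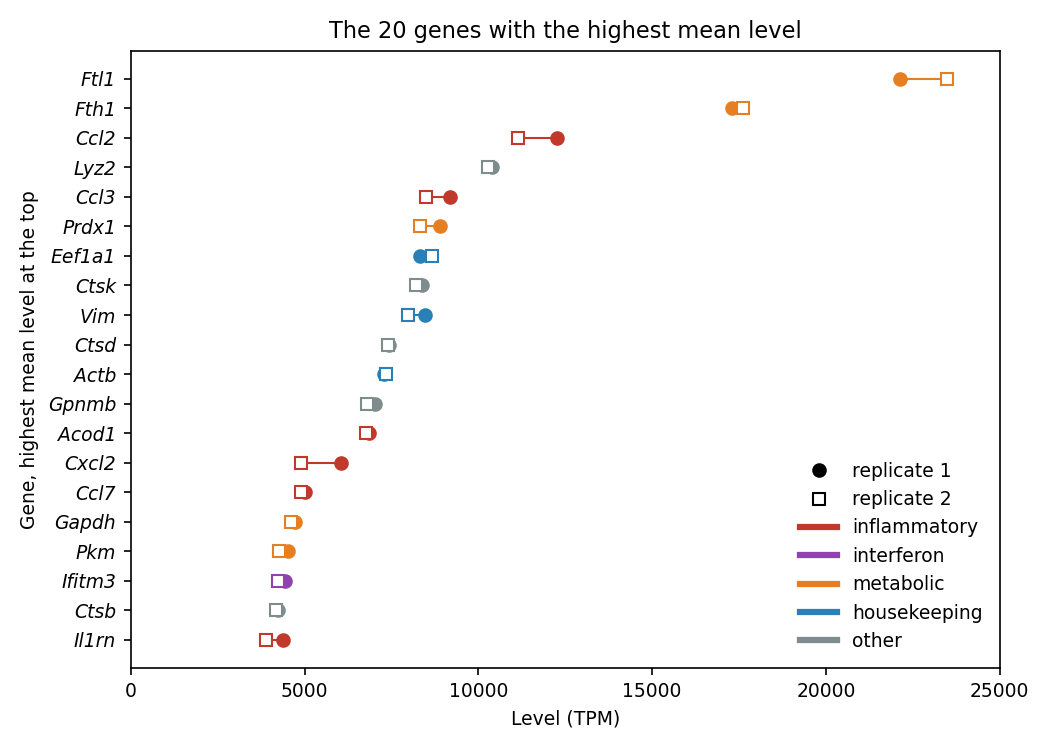
The 20 genes with the highest mean level, each with its TPM in replicate 1 (filled circle) and replicate 2 (open square), coloured by class. Ftl1 and Fth1 stand apart at the top, and Ccl2 lies at 12275 and 11127 TPM.

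In total, inflammatory lists took 6.90% and 6.29% of TPM (6.60 ± 0.434), interferon lists 2.80% and 2.52% (2.66 ± 0.196), metabolic lists 11.7% and 11.9% (11.8 ± 0.0830) and housekeeping lists 20.6% and 21.0% (20.8 ± 0.248). Together the 4 classes made up 41.9% ± 0.299 of TPM, and genes outside every list 50.3% ± 0.393. The same shares, with no test, were 6.89% and 6.17% inflammatory and 2.76% and 2.41% interferon in TubB, 1.53% and 1.56%, and 0.665% and 0.637%, in LPS_IFNg, and 1.51% and 1.60%, and 0.663% and 0.653%, in mock. Housekeeping shares were 21.0% and 21.0% in TubB, 24.0% and 24.0% in LPS_IFNg and 24.5% and 24.1% in mock. This class holds genes such as Vim, so it is not a fixed reference. Under counts without length, the housekeeping share in the LPS_IFNg_TubB libraries was 13.1%. The lists hold 895 genes found in the table of 912 listed, and the 13 protein genes of the mitochondrial genome had no row. Of the listed genes, 78 have numbered copies on alternate sequences, and 45 of these had no count on their own row. Reads that map to several places were left out, so shares of lists that hold such genes may be too low. Those reads and the mitochondrial protein genes are also missing from the total, so other shares may be too high. Adding the copies' counts does not restore those reads.

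**Figure D3:**
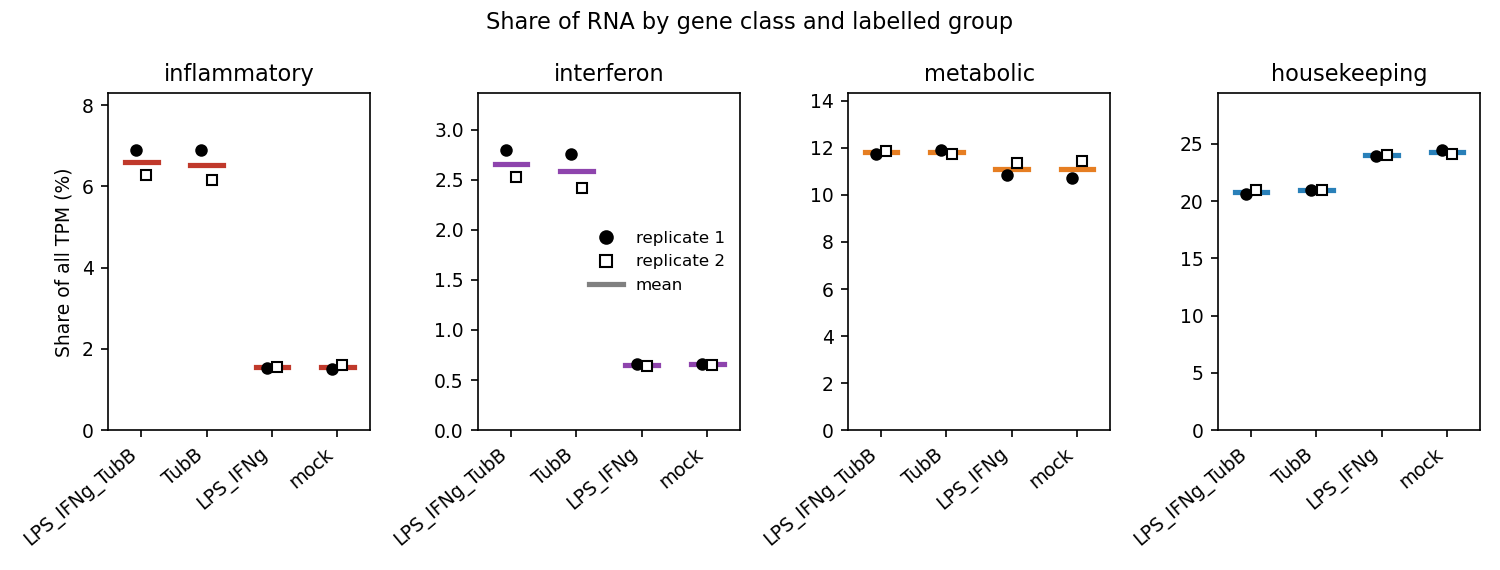
Share of all TPM in percent for the 4 gene classes, by labelled group, with replicate 1 (filled circle), replicate 2 (open square) and the mean (line). Each panel has its own axis from 0, and the LPS_IFNg_TubB libraries sit at 6.90% and 6.29% for inflammatory genes.

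Of the LPS receptor chains, the coreceptor was far above the others. Cd14 was at 4004 and 3873 TPM, whereas Tlr4 was at 21.4 and 24.3 TPM and Ly96 at 46.2 and 56.3 TPM. Myd88 had 135 and 148 TPM, and the kinase Irak2 165 and 149 TPM. Of the IFN-γ receptor chains, Ifngr1 had 18.4 and 18.5 TPM and Ifngr2 114 and 117 TPM. Of other genes in the interferon class, Jak1 was at 239 ± 33.1 TPM, Stat2 at 123 ± 20.4 TPM and Stat3 at 190 ± 16.2 TPM. Among transcription factors, Irf1 had 475 ± 23.3 TPM and Batf2 304 ± 13.8 TPM, both known interferon-response factors. The interferon signalling list had a median of 109 TPM, and of its 22 members Ifnb1, the interferon-β gene, had no count. The feedback inhibitor Socs1 was at 103 ± 2.68 TPM.

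Chemokines, which direct leukocyte movement, took 3.48% ± 0.233 of TPM, and 5 of 20 members exceeded 1000 TPM. These were Ccl2, Ccl3, Cxcl2 (6047 and 4904 TPM), Ccl7 (5004 and 4886 TPM) and Ccl4 (3001 and 2974 TPM). Ccl2 alone was 33.6% of the list. Ccl3 exceeded Ccl4, its close relative, by 3.06 and 2.86 times. The annotated spans of these 2 genes overlap, and reads in a shared stretch may not be assigned to the right gene, so the ratio is uncertain. Cxcl10, an interferon-induced T cell attractant, was at 43.0 and 28.4 TPM. The list's median was 21.3 TPM, and 6 members (Cxcl1, Ccl17, Cxcl3, Cxcl5, Cxcl14 and Cxcl16) had no count. Cxcl3, Cxcl5 and Cxcl16 also occur as numbered copies on alternate sequences, where they had no count either, so a value of 0 does not show that such a gene was silent.

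Cytokines and growth factors took 0.649% ± 0.0542 of TPM. Il1rn, the interleukin-1 receptor antagonist, led with 4384 and 3886 TPM, followed by the granulocyte factor Csf3 with 1380 and 1198 TPM and Tgfb1 with 547 and 555 TPM. Il6 had 139 and 90.4 TPM from 301 and 267 counts. Il1b, the cytokine that Il1rn blocks at the receptor, had 23.6 and 14.7 TPM, so that Il1rn was 186 and 264 times as high. Il12b, Il12a, Il10 and Tnf had no count. For Il10, an anti-inflammatory cytokine, a count of 0 allows up to 1.21 and 0.887 TPM, taking 3 counts as the limit. Tnf has 3 numbered copies, all at 0, and its row therefore says nothing about tumour necrosis factor RNA.

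Inflammatory effectors took 1.48% ± 0.0787 of TPM, with Acod1 at 46.0% of the list. After Acod1 and Nos2 came Clec4d, a C-type lectin receptor, at 1422 and 1395 TPM, Ptgs2, the inducible prostaglandin synthase, at 1051 and 767 TPM, and Plaur, the urokinase receptor, at 653 and 676 TPM. The constitutive form Ptgs1 was at 2.22 ± 0.277 TPM. Its exon length was 12411 bases, against 4460 for Ptgs2, so its level may be too low. Gch1, which starts synthesis of the nitric oxide synthase cofactor tetrahydrobiopterin, had 72.7 ± 3.02 TPM. Nos2 competes for arginine with arginase, of which Arg1 had no count, allowing up to 1.07 and 0.784 TPM, and Arg2 had 1.84 ± 1.07 TPM. No count was found for Ass1, Slc7a2, S100a9, Il4i1 or Orm1.

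Feedback and target genes of NF-κB and MAP kinases were mostly well above the median of 8.54 TPM over all rows with a count: 29 of 30 members reached 10 TPM and 19 reached 100 TPM, with a median of 165 TPM. Of all 15877 rows with a count, 7558 reached a mean of 10 TPM and 10.3% reached 100 TPM. Such levels were not particular to this list. At 100 TPM or more were 58 of 73 respiratory chain and ATP synthase genes, but 3 of 34 of fatty acid and cholesterol synthesis. Ier3, an early response gene, had 1110 and 872 TPM, Nfkbia, the NF-κB inhibitor, 975 and 918 TPM, and Tnfaip2 918 and 899 TPM. Tnfrsf1b, a receptor of tumour necrosis factor, had 656 and 594 TPM, and Sod2, the mitochondrial superoxide dismutase, 553 and 541 TPM. Ptx3 had no count. In the inflammasome list, 0.160% ± 0.00274 of TPM, Ninj1, which ruptures the membrane of dying cells, led with 511 and 528 TPM. The protease Casp1 had 283 and 295 TPM, the sensor Nlrp3 193 and 163 TPM, and the pore-forming Gsdmd 123 and 131 TPM.

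All 19 interferon-induced GTPase genes found had a count, and the list took 0.485% ± 0.0364 of TPM. Guanylate-binding proteins, which coat intracellular pathogens, led: Gbp2b had 1922 and 1691 TPM, Gbp2 1365 and 1305 TPM, Gbp5 547 and 452 TPM and Gbp7 301 and 270 TPM. Serpina3g, a serpin beside Serpina3f, was at 590 and 527 TPM. Antiviral interferon-stimulated genes took 0.879% ± 0.102, with Ifitm3, which blocks virus entry, at 4446 and 4238 TPM, or 49.4% of the list. Next were Bst2 (tetherin) at 924 and 750 TPM, Rsad2 (viperin) at 436 and 232 TPM, Cd274 (the checkpoint ligand PD-L1) at 356 and 288 TPM and Ifitm2 at 201 and 227 TPM. The list's median was 29.3 TPM, and Ifitm1, Ifi205, Slfn1, Slfn8, Daxx, Ms4a4c and Trex1 had no count on their own rows. Of these, Slfn1, Slfn8 and Daxx have numbered copies, also at 0, and cannot be read. Ifi205 had 3.59 and 1.68 TPM with its copy.

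Antigen presentation genes took 0.780% ± 0.0277 of TPM. B2m, the light chain of class I molecules, was at 3949 and 3700 TPM, the protease Ctss at 1248 and 1245 TPM, and the proteasome activators Psme2 and Psme1 at 779 and 745 TPM and at 666 and 657 TPM. H2-T23, a nonclassical class I gene, had 571 and 490 TPM. However, 11 of 26 members had no count, among them Tap1, Tap2, Tapbp, Psmb8, H2-D1, H2-Aa, H2-Ab1 and H2-Eb1, and all 11 have numbered copies. H2-K1 shows the size of this limit: its row held 1.71 and 0.629 TPM, and 267 and 236 TPM with its 3 copies.

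**Figure D4:**
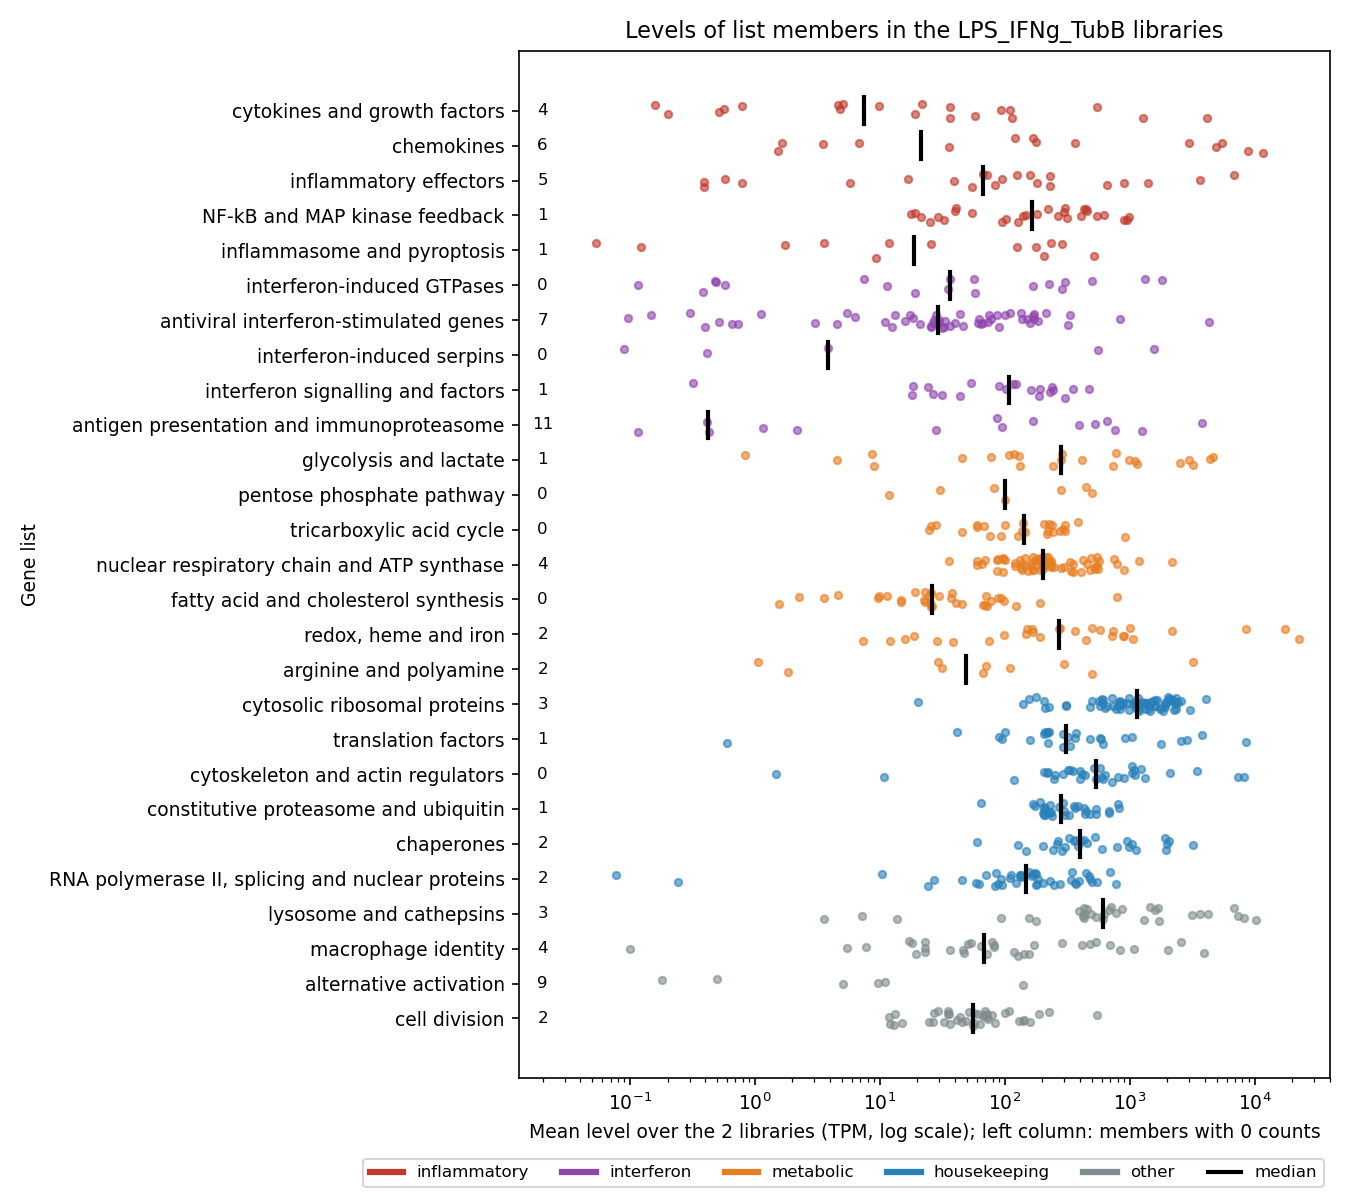
Mean level of each list member in TPM (log axis) in the LPS_IFNg_TubB libraries, one line per list, coloured by class, with the median as a black bar and the number of members without a count at the left. Ribosomal proteins cluster near their median of 1147 TPM, whereas chemokines spread from no count to 11701 TPM.

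Metabolic genes were led by redox, heme and iron genes, 5.99% ± 0.0887 of TPM, of which Ftl1 was 38.1%. Hmox1, which degrades heme, had 2146 and 2241 TPM at rank 56, and Mt2, a metal-binding metallothionein, 935 and 1182 TPM. Gstp1 and Nqo1 had no count. Gstp1 has a numbered copy, also without a count, so its level cannot be read. Glycolysis took 2.45% ± 0.0725 with a median of 283 TPM. Gapdh had 4728 and 4622 TPM, the pyruvate kinase Pkm 4516 and 4268 TPM, Aldoa 3267 and 3195 TPM, Pgk1 3050 and 2918 TPM, and Tpi1 2637 and 2469 TPM. The glucose transporter Slc2a1 had 1101 ± 63.8 TPM. Ldha, the lactate dehydrogenase subunit of glycolytic cells, had 1152 ± 50.2 TPM, and Ldhb had no count. Eno1, enolase, had 0.520 and 1.15 TPM on its own row but 2392 and 2250 TPM with its numbered copy.

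Mitochondrial energy genes were lower one by one but numerous. The tricarboxylic acid cycle took 0.496% ± 0.0215 with a median of 143 TPM, led by Mdh2 (malate dehydrogenase) at 897 and 930 TPM. Nuclear genes of the respiratory chain and ATP synthase took 2.07% ± 0.0414 with a median of 201 TPM, led by Atp5b at 2159 and 2206 TPM. Ndufa7, Ndufs3, Uqcrc1 and Atp5a1 had no count, and all have numbered copies. The pentose phosphate pathway took 0.145% of TPM, led by Taldo1 at 507 and 489 TPM. Fatty acid and cholesterol synthesis took 0.222%, with a median of 26.0 TPM, and Plin2, a lipid droplet coat protein, at 848 and 727 TPM was its highest. Odc1, the first enzyme of polyamine synthesis, had 3211 and 3170 TPM and was 74.3% of its list.

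Housekeeping RNA was mostly translation. Cytosolic ribosomal proteins took 9.93% ± 0.109 of TPM, with 45 of 80 above 1000 TPM and a median of 1147 TPM, led by Rplp1 at 4142 and 4057 TPM and Rpl32 at 3047 and 3096 TPM. Rps10, Rps18 and Rps28 had no count, and have numbered copies. Translation factors took 2.76% ± 0.0554, with Tpt1 at 3810 and 3839 TPM after Eef1a1. Cytoskeletal genes took 3.81% ± 0.0198, led by Vim, Actb and the actin-severing Cfl1 at 3350 and 3572 TPM. Chaperones took 2.18%, with the isomerase Ppia at 3158 and 3307 TPM, and the constitutive proteasome 1.15%.

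Lysosomal genes took 6.01% ± 0.0903 of TPM, with a median of 612 TPM. Besides Lyz2, the cathepsins Ctsk, Ctsd and Ctsb and the glycoprotein Gpnmb were in the 20 highest. Macrophage identity genes took 1.44% ± 0.0329 of TPM: of 38, 33 reached 1 TPM and 15 reached 100 TPM, with a median of 68.6 TPM, and Mrc1, Mertk, Trem2 and Lbp had no count (Trem2 has a numbered copy). Within a set of 10 defining markers, all reached 1 TPM and 8 reached 100 TPM, from Fcgr1 at 36.3 TPM to Cd14 at 3939 TPM. Among 47 markers of 7 other cell types, 4 reached 1 TPM on their own rows. No T cell marker of 8 had a count on its own row, but Lck, a T cell kinase, had 2.74 and 5.88 TPM with its numbered copy. The summed neutrophil markers had 1.76 and 1.44 TPM, and the summed dendritic cell markers 6.82 and 6.15 TPM. The B cell sum of 152 and 156 TPM was 99.9% Blnk, an adaptor protein. Alternative activation markers took 0.0168%, and 9 of 16 had no count, among them Chil3, Retnla and Cd163. The zeros of Mgl2, Clec10a and Egr2, which have numbered copies, cannot be read. Tgm2, a transglutaminase, at 141 ± 18.5 TPM was 84.3% of that sum. Cell division genes took 0.320% ± 0.0314, led by Pcna, the replication clamp, at 517 and 575 TPM.

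The replicates were alike for most genes and apart for some lists. Of 5690 genes with a mean of at least 20 TPM, 89.9% lay within 1.25-fold of each other and 108 were beyond 1.5-fold. At the 95% level, 26.5% differed by more than counting error, a level that counting error alone would pass in some genes. The mean chi-square per gene between the libraries was 3.31, where sampling noise alone gives 1, and other replicate pairs had 4.86 (TubB), 2.60 (LPS_IFNg) and 2.93 (mock). This value grows with depth, which differed between the pairs, so it does not rank them by agreement. Of the 5690 genes, 44.6% were higher in replicate 1. Among interferon genes this was 72 of 80, with a median log2 ratio of 0.22, and among inflammatory genes 58 of 70, median 0.15. Metabolic genes were higher there in 58 of 178 and housekeeping genes in 79 of 242. Antiviral genes stood out with 38 of 39 higher in replicate 1, median 0.35, as with Rsad2, at 436 and 232 TPM, and Isg15, a ubiquitin-like modifier, at 242 and 129 TPM. Cell division genes ran the other way, with 2 of 36 higher in replicate 1, median -0.22. The TubB libraries showed the same order by replicate number, with Rsad2 at 438 and 202 TPM and antiviral genes at 0.946% and 0.783% of TPM (0.951% and 0.807% in the LPS_IFNg_TubB libraries). In LPS_IFNg the antiviral genes took 0.371% and 0.351%, and in mock 0.372% and 0.363%. Depth also differed between the LPS_IFNg_TubB libraries, and its part in these differences was not tested.

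**Figure D5:**
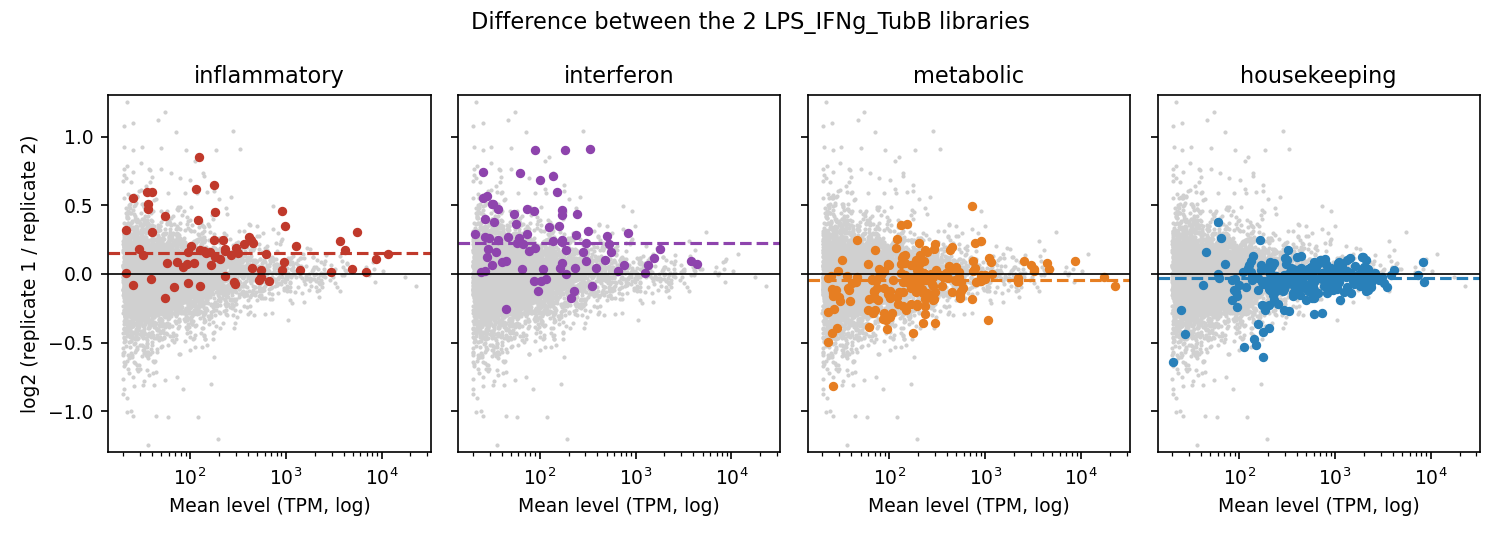
The log2 ratio of TPM, replicate 1 over replicate 2, against mean level (log axis) for the 5690 genes of at least 20 TPM (grey), with members of each class coloured and their median dashed; 7 genes lie beyond the axis. Interferon genes sit above 0 in 72 of 80 cases.

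The largest ratios belonged to very short rows: 9 of the 10 most unequal genes were under 300 bases. Several rested on few counts, as with Scarna9, at 1 and 5. Whether reads on such rows came from the short RNAs or from longer transcripts over the same bases was not tested. Mir3064, a microRNA gene, had 15 and 47 counts, and Snord16a, a small nucleolar RNA gene, 1 and 11. The exception was Lage3, with 31 and 100 counts. Short length also lifts a level in TPM: the mitochondrial transfer RNA row TrnE, 69 bases long, reached 3497 and 3805 TPM from 459 and 680 counts. The mitochondrial protein genes had no row, and whether their transcripts gave reads to TrnE was not tested. Its value is therefore not a level of the transfer RNA. Rows under 300 bases took 1.33% and 1.40% of TPM but 0.0513% and 0.0534% of counts.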

How the data were processed

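Poly(A) RNA was made into libraries with a kit that does not keep strand, per the labels' protocols. Per the submitters' processing notes, STAR 2.7.0 aligned the reads and featureCounts counted them. The authors deposited raw counts per gene, and per the file headers featureCounts 2.0.1 counted paired reads over RefSeq exons of GRCm38.p6 with no option for strand or multi-mapped reads. Overlapping antisense genes therefore cannot be told apart. The deposited table of log2 values (rlog) was used only to check column numbering: 8 of 8 columns matched. TPM was computed from counts and the deposited exon lengths over all 42454 rows (Python 3.11.15, pandas 2.3.3, numpy 2.4.6, scipy 1.17.1) and the code tested on simulated data. Intervals and floors (3 counts) cover counting error only. Named genes were 12 markers, the 20 highest, the 5 highest and the members at 0 of each list, and the 10 most unequal between replicates; members at 0 are named in part. Receptor chains, gene pairs and Isg15 were named for their roles after their values were seen. One member of the interferon signalling list is not reported here. Members and lists were chosen with earlier results of these data known.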

Additional observations from a re-analysis of the deposited data

How the results depend on the processing

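Of 30 recomputed shares and gene numbers, 19 stayed within the spread between replicates (gene numbers within 1.5-fold) and 11 moved. Counts without length gave 4.71% inflammatory, 2.23% interferon, 8.12% metabolic and 13.1% housekeeping, and 664 genes for 50%. Without genes under 300 bases, metabolic was 11.97% and housekeeping 21.1%; without mitochondrial rows, metabolic was 11.9%. With 200 bases taken off each length and genes under 300 bases left out, metabolic was 12.3% and housekeeping 22.8%. Adding numbered copies, chosen after seeing the data, gave 12.05% metabolic. Requiring 10 counts in both libraries moved none of the 5 values. Leaving out either library, which with 2 libraries cannot leave that spread, gave 6.29% to 6.90% inflammatory, 2.52% to 2.80% interferon, 11.7% to 11.9% metabolic, 20.6% to 21.0% housekeeping and 284 to 296 genes. No paired analysis was possible because the results come from no test. Precision is limited by 2 libraries and by genes with few counts.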
